A study of Macaca mulatta with 252 samples.

Results

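The genes described here are the receptors for neuromodulators and neuropeptides on a macaque expression array: the adrenergic, dopamine, acetylcholine, histamine, adenosine and cannabinoid receptors, and the receptors for neuropeptide Y (NPY), somatostatin, opioids, tachykinins, cholecystokinin, vasoactive intestinal peptide, relaxin, galanin, corticotropin-releasing hormone, oxytocin and vasopressin. They were chosen by gene symbol alone, without the serotonin receptors, and 61 of the 14133 genes on the array met the rule. The 61 genes were read by 91 probe sets, and for the 21 genes with several probe sets the one with the highest mean was used. RNA came from pieces of adult rhesus macaque brain, taken by laser capture, and each piece was put on 1 array. The 57 region groups had 4 arrays each, except 3 groups that had 3. The animals were male A, male B and male C, and female D, female E and female F, with no treatment or genetic change named for any of them.

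The groups were layers of 10 neocortical areas, fields of the hippocampus, and divisions of the dorsal lateral geniculate nucleus (LGN), the thalamic relay for vision. The areas were the primary visual cortex (V1), the secondary visual cortex (V2), the middle temporal area (MT), the temporal area (TE), and the primary auditory (A1), primary somatosensory (S1) and primary motor (M1) cortex. The frontal areas were the dorsolateral prefrontal cortex (DLPFC), the orbitofrontal cortex (OFC) and the anterior cingulate gyrus (ACG). The hippocampal groups were the dentate gyrus (DG) and the fields CA1, CA2 and CA3, and the LGN groups were the magnocellular, parvocellular and koniocellular divisions. Layers 2, 3, 5 and 6 were taken in every area and layer 4 in 7 of them, divided in V1 into 4A, 4B, 4Ca and 4Cb.

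Most of these receptors are G protein-coupled: they bind a transmitter or peptide that is released diffusely or by local interneurons, and change the excitability of the cell over a longer time than the fast transmitters do. Receptors that couple to Gi, such as those for somatostatin, NPY and opioids, generally lower cyclic AMP and quiet the neuron, whereas those that couple to Gq or Gs generally excite it or change its response to other inputs. The nicotinic receptors are the exception in the group, since they are ion channels built of several subunits and opened directly by acetylcholine. The transmitters of the monoamine and acetylcholine receptors reach the cortex largely from nuclei outside it, while most of the cortical peptides are made by cortical interneurons.

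All values are log2 intensities, and a log2 difference of 1 is a 2-fold difference. A gene was tested in a comparison when its mean there exceeded 4.76, the median of all probe sets. It was called when limma's adjusted p (Benjamini-Hochberg over all genes tested) was under 0.05 and the log2 change was at least 1. In comparisons of several levels an F test was used, and its change is the range of the fitted means. The ± after a fitted log2 change is its standard error, and the animal was a term in each model. An intensity cannot be set against that of another gene.

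Array medians lay between 4.72 and 5.00, and an array's correlation with its group had a median of 0.983. The layer and region labels were checked against marker lists. Of the upper layer list 4 of 6 genes were called higher in layer 2, of the layer 4 list 3 of 4 in layer 4, of the layer 5 list 4 of 4 in layer 5 and of the layer 6 list 2 of 5 in layer 6. The leading genes were not limited to 1 layer: CUX2 was higher by 3.31 ± 0.08 in layer 2 and by 3.08 ± 0.08 in layer 3, and FEZF2 by 2.19 ± 0.12 in layer 5 and by 2.12 ± 0.12 in layer 6, which was also its highest layer in V1. Of 2 dentate granule cell genes tested, PROX1 was higher in DG by 3.64 ± 0.10 and C1QL2 had its highest mean in CA3. Of 2 thalamic genes tested, TCF7L2 was called higher in the LGN than in neocortex, by 2.71 ± 0.10, and PRKCD was not called. Oligodendrocyte genes differed between several of the groups compared: the mean level of the 3 measured list genes was 11.1 to 11.4 in deep layers against 9.46 to 10.3 in upper layers, and 11.6 to 11.8 in the LGN against 10.5 to 10.9 in neocortex. The part of such differences in cell makeup in the results below was not tested, and in these pieces fewer cells of a type and less RNA per cell cannot be told apart. RNA was amplified in 3 batches that the labels do not assign to arrays. The spread of a hybridisation control over arrays split the regions into a narrow set (V1, TE, A1, S1, M1 and ACG) and a wide set (V2, MT, DLPFC, OFC, hippocampus and LGN), and values within these sets are given for the genes called between areas.

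Across all comparisons, 16 of the 61 receptor genes were called at least once, 17 were tested in none because their intensities were low, and the other members were tested in at least 1 comparison without being called. The called genes were RXFP1, SSTR1, SSTR2, NPY5R, CCKBR, CRHR1, OPRK1 and OPRM1 among the peptide receptors, HRH1, HRH3 and ADRA2A among the monoamine receptors, CHRM3, CHRNA1, CHRNB2 and CHRNB4 among the acetylcholine receptors, and ADORA2B for adenosine. SSTR1 was called in 8 comparisons, RXFP1 and HRH1 in 6 each and ADRA2A in 5. The low-intensity genes, which passed the filter in no comparison, were NPY2R, NPY4R, VIPR2, ADRA1A, CNR1, GALR1, HRH2, CHRM4, OXTR, AVPR1B and TACR3, and the nicotinic subunits CHRNA3, CHRNA4, CHRNA6, CHRNA9, CHRNA10 and CHRNB3. Of these, GALR1 and ADRA1A are described below from fits without the filter.

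**Figure D1:**
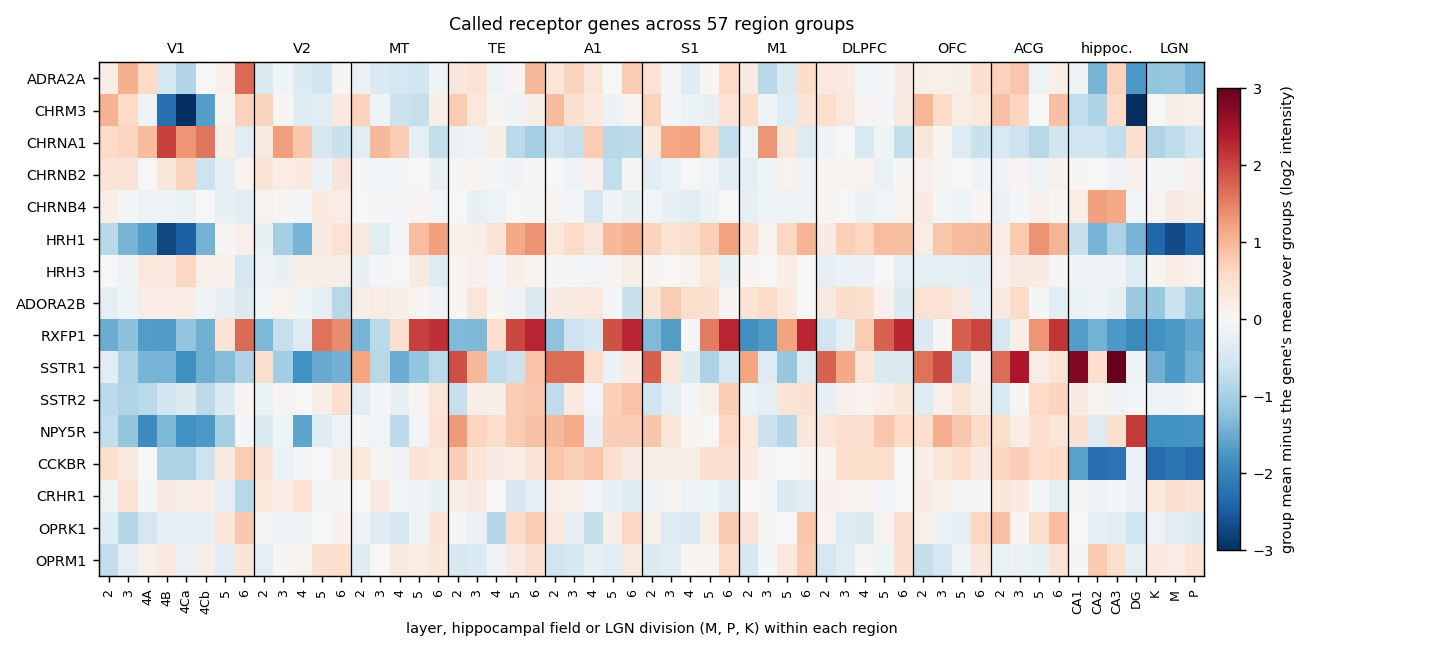
Heat map of the 16 called receptor genes (vertical axis) in the 57 region groups (horizontal axis, by region from V1 to LGN), coloured by the group mean minus the mean of that gene over the groups, on the log2 scale (red above 0, blue below, colours ending at 3 and -3). RXFP1 is red in layer 6 of the neocortical areas and blue in hippocampus and LGN, SSTR1 is reddest in CA3 and CA1, and CHRM3 is dark blue in layers 4B and 4Ca of V1 and in DG.

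Across layers 2 to 6 of the areas with a whole layer 4, 6 of 40 members tested were called, or 15%, against 6.61% of all genes tested. They were RXFP1, SSTR1, CHRNA1, SSTR2, HRH1 and OPRK1. Against the other layers, RXFP1 and SSTR1 were called in layer 2 (2 members, with 2.71% of all genes), RXFP1 in layer 3 (1 member, 0.651%), RXFP1 and SSTR1 in layer 5 (2 members, 0.69%) and RXFP1 in layer 6 (1 member, 1.63%). Between deep and upper layers of all 10 areas, the same 2 genes were called of 41 tested, against 2.13% of all genes. The median range over layers was smaller among the members than among all genes, at 0.196 against 0.262, so the layer differences lay in a few receptors. Over 158 neocortical arrays the layer accounted for a median of 3.02% of a member's variance, against 6.18% for all genes, and the residual for 59.6% against 45.5%. RXFP1 stood at the far end, with 81.1% of its variance between layers, followed by SSTR2 with 52.1%, OPRM1 with 51.0% and CHRM3 with 48.8%.

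Between the 10 areas, 5 of 41 members were called (SSTR1, NPY5R, HRH1, ADRA2A and CHRNA1), or 12.2% against 9.2% of all genes, and the median range was 0.446 among the members against 0.497 among all genes. SSTR1 was the 1 member called in ACG (1.19% of all genes) and the 1 called in V2 (0.496%), and SSTR1, HRH1 and NPY5R were the 3 called in V1 (1.2%). These 3 were also lower in the visual areas V1 and V2 than in the frontal areas ACG, OFC and DLPFC (3 of 41 members, 1.48% of all genes). The deep minus upper difference itself varied between areas in 4 of 41 members, SSTR1, RXFP1, ADRA2A and OPRK1, against 2.7% of all genes, and SSTR1 was the 1 member in which V1 differed from the other areas (0.817%). None of these 4 kept its call in the F test over areas without female E. The SSTR1 contrast of V1 with the other areas kept its call when recomputed in 12 other ways, also without female E (limma, adjusted p of at most 0.00493).

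Within V1, 11 of 37 members tested differed between the 8 layers and sublayers, or 29.7% against 14.7% of all genes. Leaving out each animal in turn gave 6 to 10 members, with 6 without male C and 7 without female E. Layer 6 held the most called members, 6 (2.9% of all genes), followed by 4B with 3 (1.69%) and 4Ca with 3 (2.49%), layer 5 with 2 (1.48%), and layers 2, 3 and 4Cb with 1 each (3.95%, 1.23% and 1.77%). Among the hippocampal fields, 8 of 41 members were called, or 19.5% against 19.1% of all genes, a share near the background. DG held 6 of them (10.2% of all genes), CA3 held 3 (2.93%), CA2 held 2 (2.79%) and CA1 held 1 (3.48%). The 8 include CHRNB4, which passed the filter there only through the fields where it was high. Among the LGN divisions limma called 0 of 38 members (0.395% of all genes), 0 also by adjusted p alone, and 2 of 38 had an unadjusted p under 0.05. Hippocampus differed from neocortex in 5 of 41 members (5.84% of all genes), and the LGN differed from neocortex in 7 of 41 (10.8%). All 7 were lower in the LGN, as were 690 of the 1120 genes called in that comparison. The filter there took the mean over hippocampus, LGN and neocortex. A receptor high in the LGN alone could therefore fall below it, as CHRNA5 did, so the shared direction was partly set by the filter.

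The limit on size matters for these shares. By adjusted p alone, fewer of the members than of all genes differed across layers 2 to 6 (15 of 40, or 37.5%, against 62.4%), between areas (27 of 41, or 65.9%, against 76.8%) and among hippocampal fields (19 of 41, or 46.3%, against 64.1%). The members' share by adjusted p alone was also the lower one between deep and upper layers (29.3% against 38.5%), between visual and frontal areas (26.8% against 42.8%), between hippocampus and neocortex (34.1% against 49.2%) and, by little, between the LGN and neocortex (61% against 63.1%), and 0 against 3.01% among the LGN divisions. It was the higher one in V1 (35.1% against 25.8%) and for the deep minus upper difference by area (17.1% against 4.99%).

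RXFP1, the receptor for the peptide relaxin, which couples to Gs, was the member most strongly ordered by layer. Averaged over areas, male A had intensities of 4.29, 5.46, 6.56, 7.98 and 8.08 in layers 2, 3, 4, 5 and 6, and male C had 4.65, 4.43, 6.07, 7.61 and 8.07. Female D had 4.79, 4.83, 5.66, 7.45 and 7.89, and female E had 5.38, 4.89, 6.17, 8.04 and 8.32. In all 4 animals layers 5 and 6 lay above layer 4, and layer 4 lay above layers 2 and 3, with no overlap between these 3 steps. The range over layers was 3.31 (adjusted p = 1.72e-11 in limma), and layer 6 stood 2.20 ± 0.15 above the mean of the other layers. Over all 10 areas, deep layers exceeded upper layers by 2.72 ± 0.12 (adjusted p = 1.52e-12), and by 2.16 to 3.19 in the 5 animals that had both. The step differed in size between areas (range 1.53, adjusted p = 0.00165): it was 3.59, 3.66 and 3.33 in M1 of male A, male C and female D, against 1.03, 2.11, 2.81 and 1.64 in ACG of male A, male B, female D and female E. Without female E this comparison of areas had an adjusted p of 0.222.

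Within V1, in layers 2, 3, 4A, 4B, 4Ca, 4Cb, 5 and 6, RXFP1 had 4.19, 4.06, 4.53, 4.33, 4.36, 4.88, 5.97 and 7.58 in male A and 4.48, 4.39, 3.51, 3.77, 3.78, 3.50, 7.18 and 7.17 in male C. It had 5.16, 4.46, 3.71, 3.74, 4.50, 5.42, 6.07 and 7.87 in female D and 4.16, 6.12, 5.50, 5.28, 6.58, 4.39, 6.32 and 8.11 in female E. Layer 6 lay above layers 2 to 4Cb in all 4 animals, and female E had the highest value in layers 3, 4A, 4B and 4Ca. Layer 6 exceeded the other V1 layers by 2.88 ± 0.34 (adjusted p = 1.22e-06), and layer 5 exceeded them by 1.40 ± 0.34 (adjusted p = 0.0137), a call that was lost without male A and without male C. Most values of layers 2 to 4Cb lay below the filter level. RXFP1 thus passed the filter in V1 only through layers 5 and 6, where it was high, and these differences are set against low intensities. Outside the neocortex RXFP1 was low throughout. The hippocampal means of male A, male C, female D and female E were 4.22, 4.45, 4.23 and 4.32, and the LGN means were 4.19, 4.25, 4.30 and 4.43, against neocortical means of 6.28, 6.16, 6.31 and 6.63. The difference was -2.04 ± 0.08 for hippocampus and -2.05 ± 0.08 for the LGN (adjusted p = 7.58e-09 and 1.76e-09). Both structures lay below the filter level of 4.76, so these differences are set against intensities near the low end of the scale. RXFP3, the other relaxin-family receptor on the array, was not called in any comparison.

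**Figure D2:**
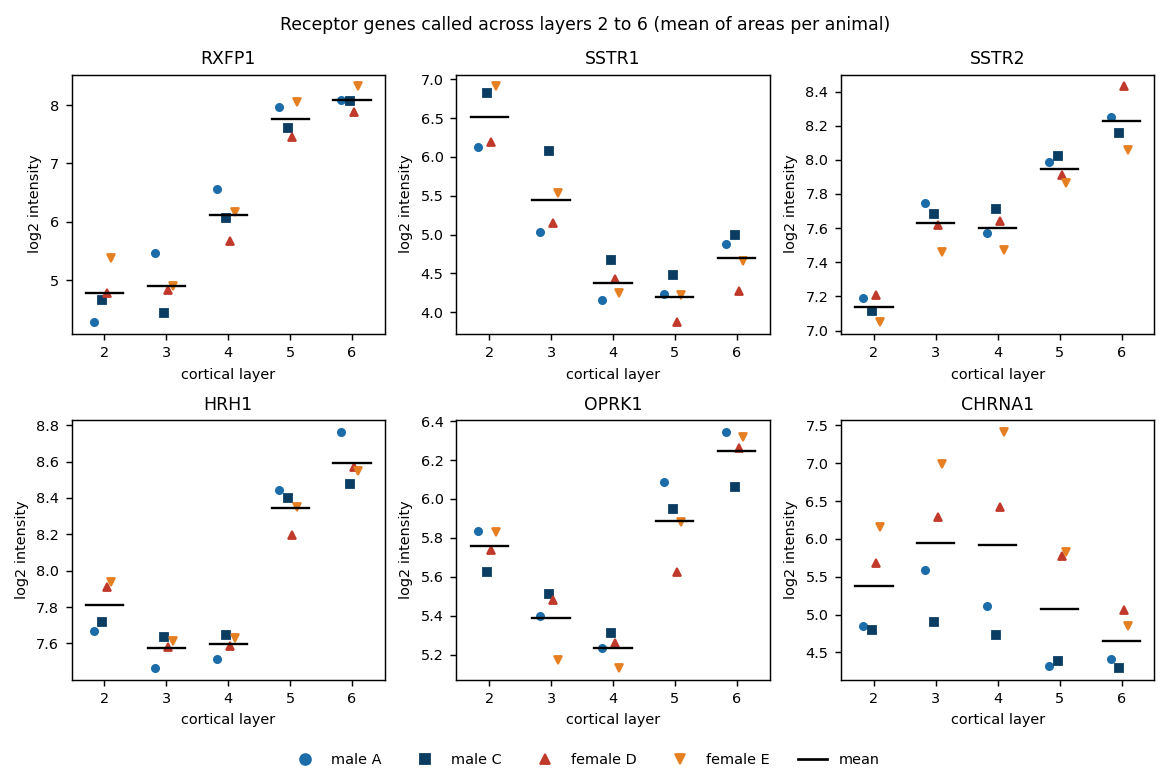
Log2 intensity (vertical axis) of RXFP1, SSTR1, SSTR2, HRH1, OPRK1 and CHRNA1 in layers 2 to 6 (horizontal axis), 1 panel per gene, with a point for each of male A, male C, female D and female E and a line through their mean. RXFP1, SSTR2, HRH1 and OPRK1 are highest in layer 6 and SSTR1 in layer 2, while CHRNA1 lies apart in the 2 males and the 2 females in layer 4 (4.73 and 5.11 against 6.43 and 7.41).

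The somatostatin receptors SSTR1 and SSTR2, both coupled to Gi, ran in opposite directions through the cortical layers. SSTR1 had 6.13, 5.03, 4.16, 4.23 and 4.88 in layers 2 to 6 of male A and 6.83, 6.08, 4.67, 4.47 and 4.99 in male C. It had 6.20, 5.15, 4.43, 3.87 and 4.27 in female D and 6.91, 5.53, 4.25, 4.22 and 4.66 in female E. Every layer 2 value lay above every value of layers 4, 5 and 6. The range was 2.32 (adjusted p = 3.50e-10), and deep layers were lower than upper layers by a log2 change of -1.51 ± 0.11 (adjusted p = 1.48e-09), in 5 of 5 animals. SSTR2 instead had 7.05 to 7.21 in layer 2 and 8.06 to 8.43 in layer 6 of the same animals, with no overlap (adjusted p of the range = 2.53e-10). Deep layers exceeded upper layers in SSTR2 by 0.67 ± 0.04, under the threshold of size. Its second probe set followed the first over the 57 groups (r = 0.89).

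SSTR1 also differed most of all members between areas. In V1 it had 4.06, 4.62, 3.70 and 4.43 in male A, male C, female D and female E, and in V2 it had 3.98, 4.77, 3.78 and 4.32. In ACG it had 6.25, 6.47, 5.67 and 6.64 in male A, male B, female D and female E. The visual values did not overlap with those of ACG, nor with the 5.08 to 5.93 of DLPFC or the 5.27 to 6.08 of OFC. The other areas lay between 4.37 in MT of female F and 6.23 in A1 of male C, and those of MT and M1 reached down to the visual values. Visual areas were lower than frontal areas by a log2 change of -1.65 ± 0.11 (adjusted p = 3.03e-13), and the contrast made only within the control sets was -1.76. Cell type marker genes differed in the same contrast: of the layer 5 list 2 of 4 were lower in visual areas (CRYM -2.03 ± 0.12 and SULF2 -1.33 ± 0.10), of the excitatory neuron list 1 of 3 (NEUROD6 -1.92 ± 0.17) and of the microglia list 1 of 6 (P2RY12 -1.44 ± 0.13), while of the inhibitory neuron list PVALB was higher (2.64 ± 0.24) and NPY lower. RASGRF2 alone of the upper layer list (-1.13 ± 0.09) and PRKCD of the thalamic list (-1.29 ± 0.12) were also lower in visual areas. The mean level of the layer 5 list was 6.75 to 6.99 in V1 and 7.28 to 7.43 in V2, against 7.79 to 8.16 in DLPFC, OFC and ACG. For the upper layer list it was 8.14 in V1 and 8.04 in V2, against 8.29, 8.35 and 8.37 in DLPFC, OFC and ACG. The part of these differences in the visual against frontal values of SSTR1, NPY5R and HRH1 was not tested. The range over areas was 2.10, and 2.13 within the narrow set and 1.48 within the wide set, all called. The fall of SSTR1 towards the deep layers was weak in V1, where deep minus upper was -0.27, -0.35, -0.17 and -1.19 in male A, male C, female D and female E, against -2.19, -2.13, -1.78 and -2.36 in OFC of male B, male C, female D and female E. V1 differed from the other areas in this by 1.14 ± 0.18 (adjusted p = 0.000112). Over all areas the range was 1.63 (adjusted p = 0.00170, and 0.0515 without female E). The SSTR1 group means of the V1 layers were 3.24 to 4.76, at or below the filter level, so the small difference there is measured at low intensity. Without the filter on low values, layer 2 of V1 exceeded the other V1 layers in SSTR1 by 1.00 ± 0.23 (adjusted p = 0.00364), with a range over V1 layers of 1.52 (adjusted p = 0.0154).

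In the hippocampus SSTR1 separated the fields pairwise. Male A had 7.95, 4.74, 8.57 and 4.24 in CA1, CA2, CA3 and DG, and male C had 7.42, 5.50, 7.91 and 4.94. Female D had 7.80, 5.94, 8.21 and 4.94, and female E had 8.17, 6.14, 8.57 and 5.69. CA1 and CA3 lay above CA2 and DG in all 4 animals without overlap. CA3 exceeded the other fields by 2.19 ± 0.19 and CA1 by 1.56 ± 0.19, while the difference was -1.46 ± 0.19 for CA2 and -2.29 ± 0.19 for DG (adjusted p = 1.31e-06 for CA3 and 1.11e-07 for DG). As whole structures, hippocampus had 6.38, 6.44, 6.72 and 7.14, against 5.04, 5.55, 4.83 and 5.44 in neocortex, a difference of 1.46 ± 0.18 (adjusted p = 5.19e-05). The LGN had 3.87, 3.30, 3.53 and 3.47 and differed from neocortex by -1.67 ± 0.18 (adjusted p = 9.40e-06). SSTR1 has a second, dimmer probe set that did not follow this pattern (r = 0.03 over 57 groups, range 0.70), so the SSTR1 values rest on a single probe set. With the mean of both, SSTR1 fell below the filter in the cortical comparisons and in those of hippocampus and LGN with neocortex. The calls in CA1 (0.70) and CA2 (-0.68) were then lost. SSTR3, SSTR4 and SSTR5 were not called.

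NPY5R, a Gi-coupled receptor for NPY, was low in the visual cortex and high in DG. In V1 it had 4.71, 5.03, 4.75 and 4.40 in male A, male C, female D and female E, and in V2 it had 5.21, 4.89, 5.56 and 5.08. In A1 it had 6.13, 6.47 and 6.23 in male C, female D and female E, and in TE it had 6.77, 5.80, 6.31 and 6.48 in the same animals as V1. V1 was below A1 and TE without overlap, and the other areas lay between 5.16 and 6.76. V1 differed from the other areas by -1.13 ± 0.13, the range over areas was 1.64 (adjusted p = 3.01e-08), and visual areas differed from frontal areas by -1.04 ± 0.12 (adjusted p = 3.37e-08). That last change is near the threshold of 1: it was -0.97 without female E, -0.96 without male A, -0.93 with the poly-A spike-in level as a covariate and -0.98 within the control sets, so the call is lost in each while the direction is kept. The range over areas was 1.65 within the narrow set and 0.96 within the wide set. The spike-in mean was 9.99 in V1 and 9.83 in V2, against 8.47 to 9.33 in OFC, DLPFC and ACG.

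Among the hippocampal fields, NPY5R had 7.69, 7.20, 7.70 and 7.64 in DG of male A, male C, female D and female E. It had 6.35, 5.37, 6.26 and 5.71 in CA1, 5.46, 5.08, 4.73 and 4.96 in CA2, and 6.70, 5.50, 5.77 and 5.75 in CA3. DG lay above each of the other fields without overlap, by 1.92 ± 0.14 against their mean (adjusted p = 3.78e-08), and CA2 differed from the other fields by -1.41 ± 0.14. In the LGN the means were 4.31, 3.51, 3.53 and 3.26, against 5.79, 5.42, 5.88 and 5.71 in neocortex (-2.05 ± 0.13, adjusted p = 7.84e-08). The second, dimmer probe set of NPY5R did not follow the first (r = -0.25 over 57 groups), so these values too rest on a single probe set. With the mean of both, the calls between areas were lost (range 0.71, V1 -0.45, visual minus frontal -0.46), as were those in DG (0.78) and CA2 (-0.65). Without the filter on low values, NPY5R also differed between V1 layers (range 1.84, adjusted p = 0.00117), with layer 6 above the others by 1.35 ± 0.25.

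CCKBR, the main cholecystokinin receptor of the brain, varied little between cortical layers outside V1 (range 0.22 over layers 2 to 6, adjusted p = 0.0926) and strongly between structures. Its hippocampal means were 6.15, 6.10, 6.10 and 6.26, its LGN means were 5.36, 5.53, 5.44 and 5.50, and its neocortical means were 8.03, 8.14, 7.92 and 8.15, in male A, male C, female D and female E. The 3 structures did not overlap. Hippocampus differed from neocortex by -1.90 ± 0.06 and the LGN by -2.60 ± 0.06 (adjusted p = 1.47e-09 and 2.47e-11). Within the hippocampus DG was high, at 7.39, 7.67, 7.57 and 7.47, against 5.14 to 6.34 in CA1, CA2 and CA3, a difference of 1.83 ± 0.11 (adjusted p = 6.86e-09). Within V1 the range was 1.70 (adjusted p = 1.29e-08), with 6.89, 6.97, 7.15 and 6.17 in 4Ca and 8.42 to 8.65 in layer 6. CCKAR, its relative better known from the gut, was not called.

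**Figure D3:**
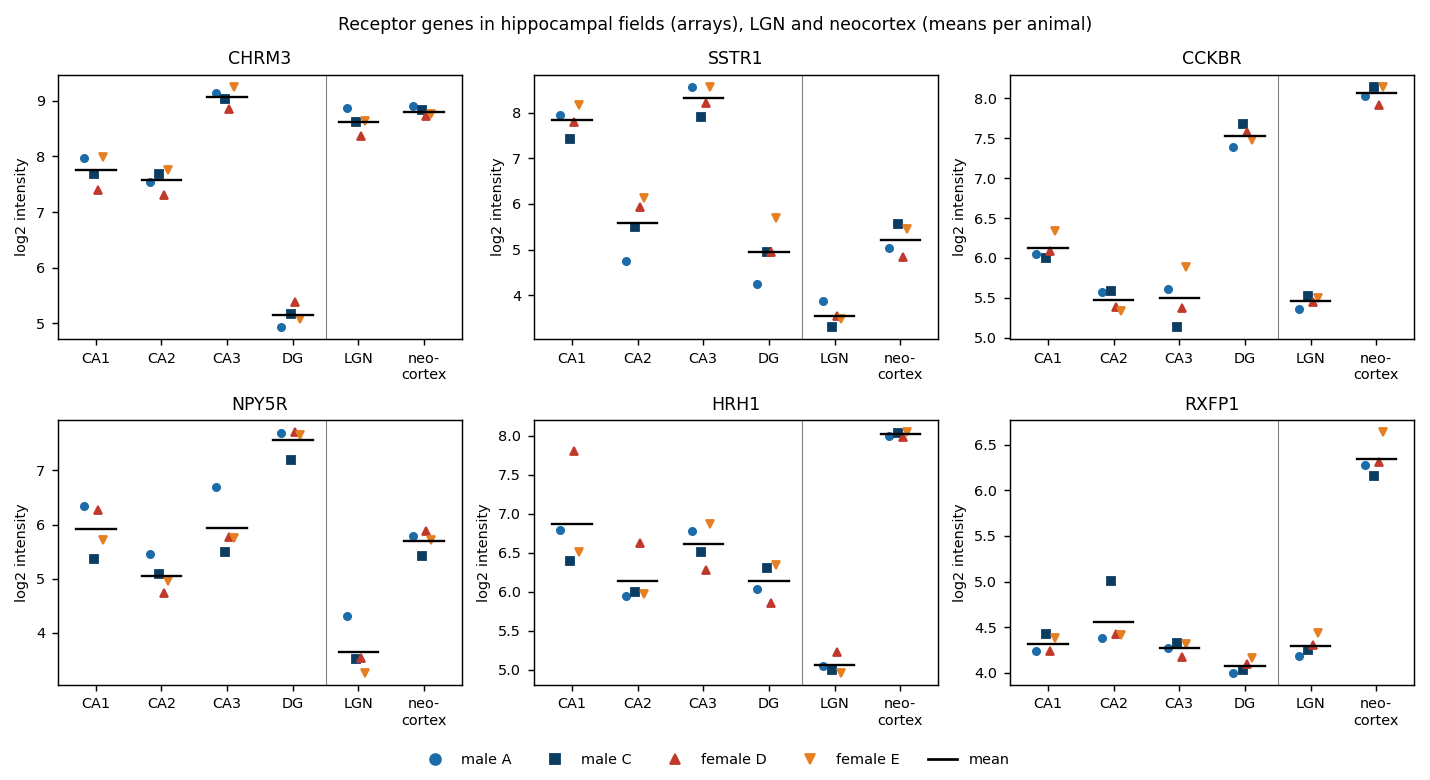
Log2 intensity (vertical axis) of CHRM3, SSTR1, CCKBR, NPY5R, HRH1 and RXFP1 in the hippocampal fields CA1, CA2, CA3 and DG (1 array per animal) and as animal means in the LGN and in neocortex (horizontal axis), with a point for each of male A, male C, female D and female E. Among the hippocampal fields CHRM3 and SSTR1 are highest in CA3 and CCKBR and NPY5R in DG, and HRH1 and RXFP1 are higher in neocortex than in hippocampus or LGN.

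The opioid receptors OPRK1 and OPRM1, both Gi-coupled, for dynorphin and for enkephalin and endorphin, leaned towards layer 6 by small amounts. OPRK1 had 5.84, 5.40, 5.23, 6.09 and 6.34 in layers 2 to 6 of male A, 5.62, 5.51, 5.31, 5.95 and 6.06 in male C, 5.74, 5.48, 5.26, 5.62 and 6.26 in female D, and 5.83, 5.17, 5.13, 5.88 and 6.32 in female E. Layer 4 was lowest and layer 6 highest in each animal. The range of 1.01 (adjusted p = 1.07e-07) is at the threshold, and was 0.96 without female E and 0.98 without male A. Within V1 the range was 1.68 (adjusted p = 0.00911), with layer 6 above the other layers by 1.12 ± 0.25; the adjusted p of the range was 0.0651 without female E and 0.139 without male C. The layer 6 difference was 0.96 without female D, and its adjusted p was 0.051 without male C. The OPRK1 deep minus upper difference was 1.31, 1.11, 1.35 and 1.00 in V1, against 0.38, 0.02, -0.03 and 0.24 in V2 of male A, male C, female D and female E, without overlap. Its range over areas was 1.04 (adjusted p = 0.0305, and 0.446 without female E, 0.259 without male C and 0.0688 without male A). OPRM1 had 5.67 to 5.82 in layer 2 and 6.34 to 6.63 in layer 6, without overlap but under the threshold of size. It was called in V1 (range 1.11, adjusted p = 0.0445, lost without each of female D, female E and male C) and among the hippocampal fields (range 1.06, adjusted p = 4.08e-06, and 0.95 without female D). Recomputed in 12 other ways, the V1 call was kept in 5. It was also lost with quantile normalization (limma, adjusted p = 0.054), without the filter (0.060) and with the mean of all probe sets (range 0.57). The other OPRM1 probe sets did not follow the first over the 57 groups (r = -0.10 and 0.05). In CA2 OPRM1 had 6.67, 6.96, 7.17 and 6.86, and in DG it had 5.78 to 6.05. OPRD1 was not called.

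CRHR1, the main receptor for corticotropin-releasing hormone, was called between V1 layers, with a range of 1.26 from layer 3, the highest, to layer 6, the lowest (adjusted p = 0.00923). Its adjusted p was 0.0913 without female D and 0.0884 without male C, and its 3 other probe sets followed it weakly (r = 0.11, 0.44 and 0.28). With the mean of all its probe sets the call was also lost (range 0.54, adjusted p = 0.180 in limma). CRHR2 was not called. TACR1, the substance P receptor, VIPR2, the galanin receptors GALR2 and GALR3, and the oxytocin and vasopressin receptors OXTR, AVPR1A, AVPR1B and AVPR2 were called in no comparison. The group means of TACR1 spanned 0.96, from koniocellular LGN to layer 6 of V1, those of OXTR spanned 0.86 and those of VIPR2 spanned 1.24. The last 2 lie below the filter level on average.

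Of the histamine receptors, HRH1, which couples to Gq, was called in 6 comparisons, and its second probe set followed the first closely (r = 0.94 over 57 groups). In layers 2 to 6 it had 7.67, 7.47, 7.51, 8.44 and 8.76 in male A, 7.72, 7.64, 7.65, 8.40 and 8.48 in male C, 7.91, 7.58, 7.59, 8.19 and 8.57 in female D, and 7.94, 7.61, 7.63, 8.35 and 8.55 in female E. Layers 5 and 6 lay above layers 2, 3 and 4 in all 4 animals. The range was 1.02 (adjusted p = 1.53e-09), and 0.92 without male A. Among areas V1 was lowest, at 7.04, 7.31, 6.74 and 7.03 in male A, male C, female D and female E, followed by V2 at 7.43, 7.45, 7.25 and 7.51. In ACG HRH1 had 8.42, 8.11, 8.57 and 8.47 in male A, male B, female D and female E, and all other areas lay between 7.88 and 8.58. V1 differed from the other areas by -1.15 ± 0.08 (adjusted p = 1.20e-11) and visual from frontal areas by -1.16 ± 0.08 (adjusted p = 6.53e-13), or -1.19 within the control sets. The range over areas was 1.44, with 1.48 within the narrow set and 0.93 within the wide set, which does not hold V1. With the mean of both probe sets, HRH1 kept its directions and small adjusted p but not the size needed for a call across layers (range 0.86), in V1 (-0.93), between visual and frontal areas (-0.96) and in V1 layer 4Ca (-0.82).

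**Figure D4:**
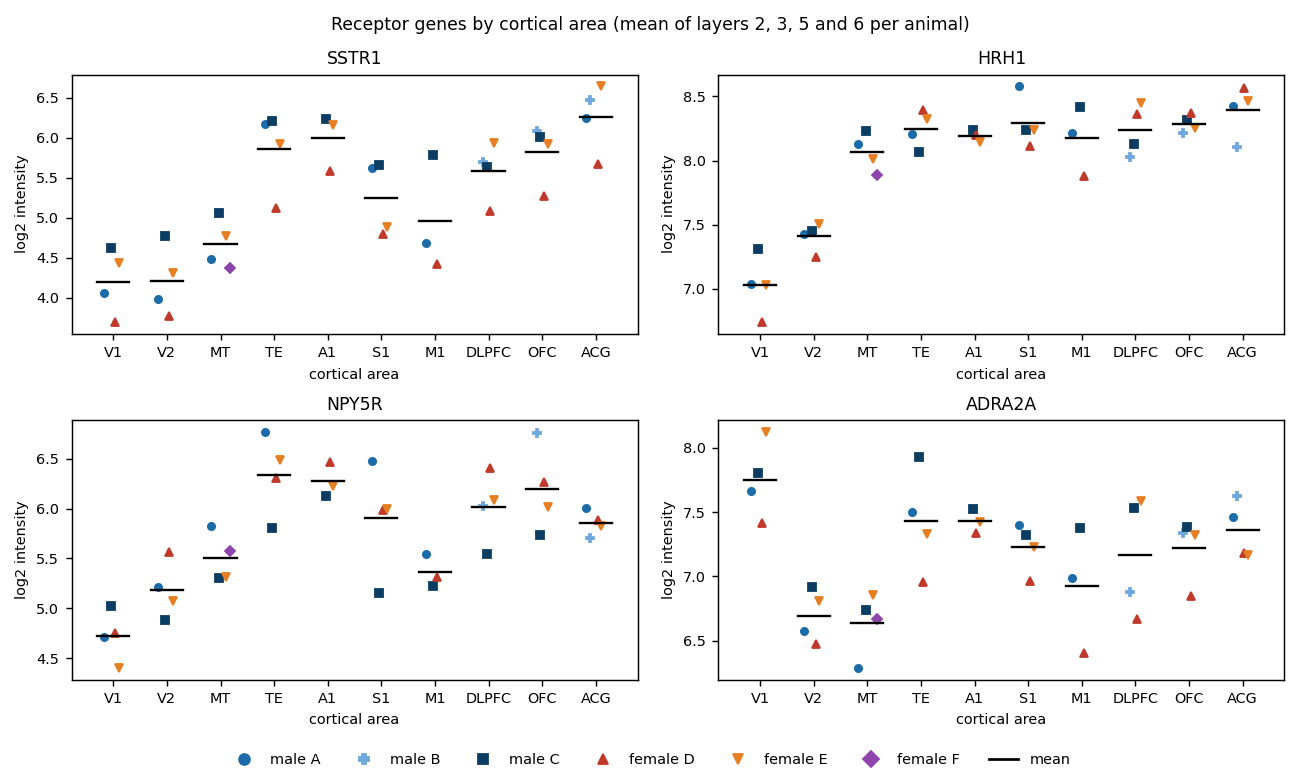
Log2 intensity (vertical axis, mean of layers 2, 3, 5 and 6) of SSTR1, HRH1, NPY5R and ADRA2A in the 10 neocortical areas (horizontal axis, V1 at the left and ACG at the right), with a point for each of the 6 animals and a line for the mean. SSTR1, HRH1 and NPY5R are lowest in V1 or V2, and ADRA2A has its highest mean in V1.

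Within V1, in layers 2, 3, 4A, 4B, 4Ca, 4Cb, 5 and 6, HRH1 had 6.14, 6.62, 6.32, 5.61, 5.22, 5.90, 7.37 and 8.01 in male A and 6.63, 6.32, 5.43, 4.67, 4.75, 5.62, 8.24 and 8.04 in male C. It had 6.72, 5.98, 6.23, 5.20, 4.82, 6.51, 7.24 and 7.03 in female D and 7.33, 5.66, 5.54, 3.75, 5.64, 6.49, 7.44 and 7.68 in female E. Layers 5 and 6 lay above the other layers within each animal, and 4B or 4Ca was lowest. Layers 5 and 6 exceeded the other V1 layers by 1.50 ± 0.27 and 1.64 ± 0.27, and the differences were -1.65 ± 0.27 for 4B and -1.31 ± 0.27 for 4Ca. The range was 2.88 (adjusted p = 1.20e-06). Across structures, hippocampus had 6.39, 6.31, 6.64 and 6.43 and the LGN had 5.05, 5.00, 5.23 and 4.96, against 7.99 to 8.05 in neocortex. The differences were -1.58 ± 0.07 and -2.96 ± 0.07 (adjusted p = 1.50e-08 and 2.54e-11), and that of the LGN was the widest of all members between structures. HRH3, the Gi-coupled receptor on histamine-releasing and other terminals, was called between V1 layers (range 1.16, adjusted p = 0.0269, lost without each of female D, female E and male C). Its other probe sets did not follow it (r = -0.06 and -0.13). With the mean of all its probe sets the call was lost too (range 0.41, adjusted p = 0.733 in limma).

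ADRA2A, the Gi-coupled adrenergic receptor best known in prefrontal cortex, had its highest area mean in V1. It had 7.66, 7.81, 7.42 and 8.12 in V1 of male A, male C, female D and female E, against 6.58, 6.92, 6.47 and 6.81 in V2 and 6.29, 6.74, 6.86 and 6.67 in MT (male A, male C, female E and female F). V1 overlapped with neither, but the other areas, between 6.40 and 7.93, reached the V1 values. The range over areas was 1.24 (adjusted p = 1.18e-06), but V1 and MT are in different control sets, and within the sets the range was 0.83 and 0.68, under the threshold. Its deep minus upper difference was 0.09, 0.72, 0.05 and 0.34 in V1 of male A, male C, female D and female E, against -0.47, -0.58, -0.87 and -1.12 in ACG of male A, male B, female D and female E. The sign was opposite in every animal measured, and the range over areas was 1.13 (adjusted p = 0.00308, and 0.259 without female E).

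Within V1, in the order of layers 2, 3, 4A, 4B, 4Ca, 4Cb, 5 and 6, ADRA2A had 7.36, 7.87, 7.06, 6.02, 5.91, 7.02, 6.78 and 8.63 in male A and 6.99, 7.91, 8.13, 7.0, 6.82, 7.59, 7.82 and 8.51 in male C. It had 6.72, 8.06, 7.87, 6.47, 5.55, 5.93, 6.29 and 8.59 in female D and 7.58, 8.33, 7.18, 6.25, 6.05, 7.26, 7.61 and 8.98 in female E. Layer 6 was highest and 4Ca lowest in each animal. The range was 2.60 (adjusted p = 1.43e-06), with layer 6 above the other layers by 1.63 ± 0.22 (adjusted p = 6.29e-06) and 4Ca at -1.34 ± 0.22. In the hippocampus it had 6.62, 7.17, 6.61 and 6.84 in CA1, 5.61, 5.64, 5.57 and 5.53 in CA2, 7.51, 7.53, 7.73 and 7.83 in CA3, and 5.05, 5.37, 5.32 and 5.26 in DG, in male A, male C, female D and female E. The 4 fields did not overlap. CA3 exceeded the others by 1.77 ± 0.09, and DG differed from them by -1.43 ± 0.09 (adjusted p of the range = 1.35e-09). The LGN had 5.64, 5.79, 5.82 and 5.69, against 7.13, 7.39, 6.92 and 7.32 in neocortex (-1.45 ± 0.08, adjusted p = 3.38e-08). ADRA2B and ADRB3 were not called, nor were the dopamine receptors on the array, DRD2 and DRD4. Group means of DRD2, the Gi-coupled dopamine receptor, spanned 1.03, from 6.55 in layer 4 of V2 to 5.52 in DG.

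CHRM3, a Gq-coupled muscarinic acetylcholine receptor, showed the widest range within V1 of all members. In layers 2, 3, 4A, 4B, 4Ca, 4Cb, 5 and 6, male A had 9.57, 9.15, 8.50, 6.30, 5.21, 7.03, 8.70 and 9.19, and male C had 9.59, 9.22, 8.43, 6.64, 4.84, 6.51, 8.68 and 9.51. Female D had 9.33, 9.11, 8.18, 5.63, 4.59, 6.89, 7.96 and 8.97, and female E had 9.72, 8.93, 8.46, 6.34, 5.05, 6.91, 8.98 and 9.08. Layers 4B, 4Ca and 4Cb lay below all other layers in each animal, and 4Ca, which receives magnocellular input from the LGN, was lowest in all 4. The range was 4.63 (adjusted p = 1.54e-16), and the difference from the other layers was -3.35 ± 0.13 for 4Ca, -1.85 ± 0.13 for 4B and -1.16 ± 0.13 for 4Cb. Layers 2, 3 and 6 exceeded the other layers by 1.94 ± 0.13, 1.43 ± 0.13 and 1.53 ± 0.13. In the areas with a single layer 4, CHRM3 had 9.07 to 9.29 in layer 2 and 8.04 to 8.43 in layer 5, and its range of 0.94 over layers was under the threshold (adjusted p = 4.35e-09).

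**Figure D5:**
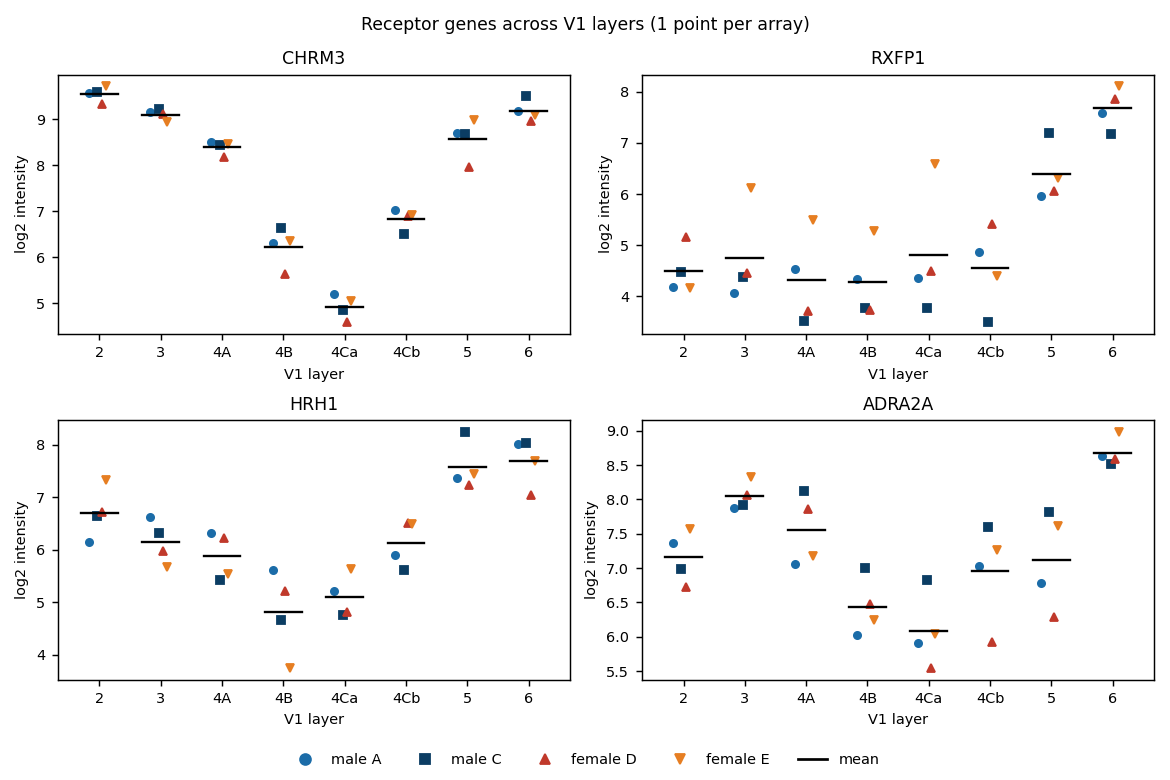
Log2 intensity (vertical axis) of CHRM3, RXFP1, HRH1 and ADRA2A in the layers and sublayers of V1 (horizontal axis, layers 2 to 6 in order of depth), with a point for each of the 4 animals and a line for the mean. CHRM3, HRH1 and ADRA2A dip in 4B or 4Ca, and RXFP1, HRH1 and ADRA2A have their highest means in layer 5 or 6.

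In the hippocampus CHRM3 had 7.96, 7.54, 9.14 and 4.94 in CA1, CA2, CA3 and DG of male A, 7.68, 7.67, 9.03 and 5.17 in male C, 7.39, 7.31, 8.85 and 5.38 in female D, and 7.99, 7.75, 9.25 and 5.09 in female E. CA3 lay above and DG below the other fields in each animal. CA3 exceeded the others by 2.24 ± 0.11 and DG differed from them by -2.99 ± 0.11 (adjusted p = 1.42e-08 and 2.91e-11). The oligodendrocyte list was also higher in CA3, with a mean level of 10.9, than in DG, with 8.79, as was the excitatory neuron list, with 9.14 against 7.16. In that last list NEUROD6 had by far the widest range over fields, 5.82, with DG at -5.43 ± 0.21 against the others. The range was 1.06 for SLC17A7, and 1.01 for TBR1, which was lowest in CA1. The list mean in DG therefore follows NEUROD6 in large part. Hippocampal means of CHRM3 were 7.40, 7.39, 7.23 and 7.52, against neocortical means of 8.91, 8.83, 8.72 and 8.75 (-1.42 ± 0.07, adjusted p = 4.58e-08). The LGN means of 8.86, 8.61, 8.36 and 8.63 overlapped with those of neocortex. When the dimmer second probe set (r = 0.69) was averaged in, the difference between hippocampus and neocortex was -0.82, under the threshold. CHRM1 and CHRM5 were not called.

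Of the 16 nicotinic subunit genes, CHRNA1, CHRNB2 and CHRNB4 were called. CHRNA1 codes for the ligand-binding subunit of the muscle-type receptor. It had 4.84, 5.58, 5.11, 4.32 and 4.41 in layers 2 to 6 of male A and 4.80, 4.91, 4.73, 4.39 and 4.30 in male C, against 5.69, 6.29, 6.43, 5.77 and 5.07 in female D and 6.16, 6.99, 7.41, 5.83 and 4.85 in female E. Both females lay above both males in each layer, and the animal accounted for 33.3% of its variance over cortical arrays. The cause of this difference was not tested, and with 2 animals each it cannot be told from a difference between single animals. Within each animal layer 3 or 4 was highest, and the range over layers was 1.29 (adjusted p = 0.000169 with animal in the model, 0.207 without). Between areas CHRNA1 had its highest mean in S1, at 4.72, 4.43, 6.91 and 6.93 in male A, male C, female D and female E, and its lowest in ACG, at 4.19, 4.83, 5.10 and 5.09 in male A, male B, female D and female E. The groups overlap, since the males of S1 lay below the females of ACG. The range was 1.18 (adjusted p = 0.000901), and 0.92 without female E, with an adjusted p of 0.0716. It was 1.22 within the narrow set and 0.51 within the wide set (adjusted p = 0.245).

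In V1, CHRNA1 had 6.63, 6.38, 7.70 and 9.18 in 4B, against 4.63, 4.27, 6.01 and 5.37 in layer 6 of the same animals. The range was 2.40 (adjusted p = 0.00437, and 0.0655 without male A). 4B exceeded the other layers by 1.35 ± 0.35, and layer 6 differed from them by -1.39 ± 0.35. Both of these contrasts lost their call without female E, and that of 4B also without male A. In the hippocampus DG was highest, at 5.86, 5.75, 6.09 and 5.89, by 1.13 ± 0.14. CHRNB4, which pairs with the alpha-3 subunit, was called among the hippocampal fields, the 1 comparison in which it was tested (range 1.31, adjusted p = 1.48e-05). It had 5.99, 5.75, 5.62 and 5.28 in CA2, 5.82, 5.95, 5.49 and 5.02 in CA3, 4.45 to 4.93 in CA1 and 4.06 to 4.48 in DG, so CA2 and CA3 lay above CA1 and DG. CHRNB2, the usual partner of the alpha-4 subunit in brain, was called between V1 layers (range 1.27, adjusted p = 0.0141), and its adjusted p was 0.0589, 0.0861 and 0.116 without female D, female E and male C. CHRNA7, the subunit of the homomeric brain receptor, spanned 1.40 over the 57 groups, from 10.17 in layer 2 of S1 to 8.77 in DG, and was not called.

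ADORA2B, a Gs-coupled adenosine receptor, had 5.99, 5.92, 5.82 and 5.44 in the LGN, against 6.48, 6.97, 6.95 and 6.79 in neocortex of male A, male C, female D and female E, without overlap. The difference of -1.01 ± 0.12 (adjusted p = 1.85e-05) is at the threshold, and was -0.97, -0.89 and -0.99 without female D, female E and male C and -0.93 against the neocortical areas of the wide set, to which the LGN belongs. By layer it had 6.85 to 7.39 in layer 3 and 6.07 to 6.52 in layer 6, without overlap and under the threshold. ADORA1 and the cannabinoid receptor CNR2 were not called. CNR1, the main cannabinoid receptor of the brain, had group means of 3.64 in DG to 4.83 in layer 4Ca of V1 and was too dim to test.

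GALR1, a Gi-coupled galanin receptor, was too dim on average to be tested but stood out in layer 4. It had 3.33, 3.43, 5.52, 4.65 and 3.43 in layers 2 to 6 of male A, 3.39, 3.44, 4.10, 3.67 and 3.43 in male C, 3.29, 3.25, 4.80, 4.71 and 3.47 in female D, and 3.19, 3.35, 5.45, 4.76 and 3.32 in female E. Layers 2, 3 and 6 lay between 3.19 and 3.47, and layers 4 and 5 lay above them without overlap. Without the filter on low values, layer 4 exceeded the other layers by 1.33 ± 0.17 (adjusted p = 9.04e-06), and GALR1 also differed between V1 layers, with 5.47, 5.53, 5.60 and 5.28 in 4A and 4.57, 3.24, 3.66 and 3.50 in layer 2 (range 1.73, adjusted p = 0.00816). Its highest group mean, 5.73, was in layer 4 of MT.

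Some of the members ran alike over the 57 group means. The highest correlation was between RXFP1 and SSTR2 (r = 0.74), followed by CCKBR with HRH1 (0.73), GALR3 with RXFP3 (0.72), HRH1 with NPY5R (0.71) and HRH1 with RXFP1 (0.71). Others ran opposite: DRD2 with NPY5R (r = -0.63), CCKBR with CHRNB4 (-0.61) and CRHR1 with RXFP1 (-0.60) had the lowest values. These are descriptions over groups that share animals and arrays. The groups pool neocortex, hippocampus and LGN, and CCKBR, HRH1, RXFP1 and NPY5R were all lower in the LGN than in neocortex. The part of such differences between structures in these correlations was not tested.

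The genes around the receptors were described with the same calls. Of 23 neuropeptide precursor genes 13 were on the array and 11 were tested. Among layers 2 to 6, 4 of 11 were called, against 6.61% of all genes. VIP, with a range of 3.17, and TAC3, the neurokinin B precursor, with 1.64, were highest in layer 2. NPY, with 1.98, and CRH, with 1.26, were highest in layer 6. VIP was lower in deep than in upper layers by a log2 change of -2.16 ± 0.10. Visual areas differed from frontal areas in NPY alone of the 11 (-1.03 ± 0.17, adjusted p = 1.55e-05), against 1.48% of all genes. NPY was lower there, by a change near the threshold. Its receptor NPY5R was also lower there, with a call kept in 10 of 15 recomputations. With the mean of both NPY5R probe sets that change was -0.46. The V1 layers differed in 6 of 11 precursors, against 14.7% of all genes, led by VIP (3.80), NPY (2.58) and TAC3 (2.49). In the hippocampus the precursor and the receptor were highest in different fields: NPY was highest in CA3 and lowest in DG (range 2.50, adjusted p = 2.60e-05), whereas NPY5R was highest in DG. Of 11 tested precursors, the LGN was lower than neocortex in 3, with 10.8% of all genes called there in either direction. These were VIP (-5.44 ± 0.12), PNOC, the nociceptin precursor (-1.97 ± 0.08), and TAC3 (-1.19 ± 0.09). Hippocampus was lower in the same 3 (5.84% of all genes called), by smaller amounts for VIP (-1.36 ± 0.12) and PNOC (-1.16 ± 0.08).

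Genes for transmitter synthesis and vesicular loading, 11 of 13 on the array and 6 or 7 tested, varied little. DAGLB, an enzyme that makes the endocannabinoid 2-arachidonoylglycerol, was called in V1 (range 1.27, layer 6 highest), where 14.7% of all genes were called. Nothing was called in any other comparison. Of the clearance and breakdown genes, 16 of 20 on the array, HNMT, which inactivates histamine, was highest in layer 2 and lowest in layer 6 (range 1.23, adjusted p = 2.84e-12), whereas HRH1 was highest in layer 6. MGLL, which breaks down 2-arachidonoylglycerol, was highest in layer 5 (range 1.17), and these were the 2 called of 11 tested by layer, against 6.61% of all genes. In the hippocampus 4 of 12 were called, against 19.1% of all genes. MGLL (2.20) and MAOA (1.42) were highest in CA2, and SLC29A4, a monoamine transporter (2.00), and MME, which cleaves peptides (1.07), were highest in DG. Of the accessory genes, 18 of 24 on the array, none of 16 tested was called by layer (6.61% of all genes). Between hippocampus and neocortex 4 of 15 differed (5.84% of all genes). RIC3, which helps nicotinic receptors assemble, was higher in hippocampus by 3.21 ± 0.08 and GRK3 by 1.03 ± 0.09, while RGS4, which speeds the shut-off of Gi and Gq signals, was lower (-3.22 ± 0.09), as was CRHBP, which binds corticotropin-releasing hormone (-2.18 ± 0.15). RGS4 was also lower in the LGN than in neocortex (-3.30 ± 0.09).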

How the data were processed

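RNA from each piece (5 ng, 2 amplification cycles, per the labels' protocols) was hybridised to 1 GeneChip Rhesus Macaque Genome Array. The deposited values are log10 intensities, computed by the authors with RMA in Matlab 2007b within each amplification batch and then scaled per probe set on whole brain control RNA, per the file headers. Values were taken to log2 by multiplying with 3.32; the planned tests, written for log2 values, were kept. The 27 control arrays entered no comparison.

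Of 52865 probe sets, 24969 had 1 gene symbol in GEO's platform annotation. Of the members' Entrez IDs, 59 of 61 were in the macaque RefSeq list, with the same symbol. No coordinates or sequences are given. The members and lists were chosen with earlier results of these data known.

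Models were fitted over all genes tested in R (version 4.3.3) with limma (version 3.58.1), reading files with data.table version 1.17.8, and were checked on simulated data with known changes. Each animal counted once per level. Layer values were centred per animal and area and averaged over areas, area values were means of layers 2, 3, 5 and 6, and V1, hippocampal and LGN comparisons used single arrays. Animals pair the samples by design. After removal of group means, arrays of the same animal had a median r of 0.134 (5367 pairs) and arrays of different animals -0.0379 (19500 pairs). Named are all called members, the member of each family with the widest range of group means, and up to 4 called genes per list, with values per animal or array for up to 4 members of a comparison and ranges for the middle areas. CHRNA7 and the correlated pairs were chosen after their values were seen. The precision is limited by how many animals and arrays there were. Alternatives were other normalizations, filters, blocks, probe set rules, thresholds and control sets, a spike-in covariate, and leaving out each animal.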

Additional observations from a re-analysis of the deposited data

Results flagged for a closer look

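In 4 of 58 per-animal sets examined, 1 animal lay far from the other 3. Chance alone flags about 1 set in 20. Of these, 3 concern SSTR1 in male A: its layer 5 minus the other layers was -0.817 (the others -1.12 to -1.17), its CA1 minus the other fields was 2.10 (the next 1.44), and its CA3 minus the other fields was 2.93 (the next 1.98). The last concerns ADRA2A in male C, where V1 layer 6 minus the other layers was 1.05 (the others 1.77 to 1.90). All 4 sets had the same direction in every animal.

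The deep minus upper difference varied between areas, by limma's F test with animal in the model, for SSTR1 (range 1.63, from V1 to OFC), RXFP1 (1.53, from M1 to ACG), ADRA2A (1.13, from V1 to ACG) and OPRK1 (1.04, from V1 to V2). These F test calls were made with all animals, and none was called without female E. The SSTR1 contrast of V1 with the other areas did keep its call without female E.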

How the results depend on the processing

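Of 126 recomputed counts of called members, 110 stayed within 1.5 times the reported count, and of 1127 recomputed values of called members 1051 kept their call, 76 kept their direction but lost the call, and 0 changed direction. With an adjusted p under 0.05 alone and no limit on size, where the shares of all genes also grow, as given above, the counts were 15 across layers 2 to 6, 12 between deep and upper layers, 27 between areas, 11 between visual and frontal areas, 7 for the deep minus upper difference by area, 19 among hippocampal fields, 14 between hippocampus and neocortex and 25 between the LGN and neocortex. With the mean of all probe sets of a gene, they were 1 between deep and upper layers, 0 between visual and frontal areas (limma, adjusted p and size together) and 3 between hippocampus and neocortex. Dimmer probe sets then enter the mean. HRH1 and NPY5R lost their calls between visual and frontal areas, and CHRM3 lost its call between hippocampus and neocortex. SSTR1 fell below the filter in each of these comparisons, and in that of the LGN with neocortex. Within the wide control set, which lacks V1 and ACG, 1 member differed between areas. Leaving out each animal in turn gave 4 to 7 called across layers, 2 in every case between deep and upper layers, 5 to 6 between areas, 2 to 4 between visual and frontal areas, 0 (without female E) to 4 for the deep minus upper difference by area, 6 (without male C) to 10 in V1, with 7 without female E, 7 to 9 among hippocampal fields, 0 to 1 among LGN divisions (CHRNA5 without female D), 5 in every case between hippocampus and neocortex and 6 to 7 between the LGN and neocortex. The cause of these differences was not tested, and fewer animals also mean fewer degrees of freedom.

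Without the animal block, that is without the pairing by animal, the counts were 5 across layers, 2 between deep and upper layers, 5 between areas, 3 between visual and frontal areas, 4 for the difference by area, 9 in V1, 8 among hippocampal fields, 0 among LGN divisions, 5 for hippocampus and 7 for the LGN against neocortex. CHRNA1 lost its call without the block across layers (adjusted p = 0.207), between areas (0.615) and in V1 (0.287, and 0.108 with animal as a random block), and OPRM1 lost it in V1 (0.0659). Low intensity leaves 17 members without a result under the filter, of which GALR1 and ADRA1A were described without it. Genes with a single probe set, or whose probe sets disagree (SSTR1, NPY5R, HRH3, OPRM1), have no second reading on the array.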

Other observations

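Without the filter on low values, 2 further members, chosen after their values were seen, differed between groups in a way the tests above leave out. ADRA1A, a Gq-coupled adrenergic receptor, had 5.61, 5.44, 5.69 and 6.24 in DG of male A, male C, female D and female E, against 3.87 to 4.21 in CA1. DG exceeded the other fields by 1.57 ± 0.13 (limma, adjusted p = 3.06e-07), so among the adrenergic receptors ADRA1A was high in the field where ADRA2A was low. Its other probe sets did not follow it over the 57 groups (r = -0.06 and -0.35).

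CHRNA5, an accessory nicotinic subunit, had 5.14, 5.26, 4.90 and 5.65 in the LGN, against 3.99, 3.94, 3.91 and 3.96 in neocortex of male A, male C, female D and female E. The LGN exceeded neocortex by 1.29 ± 0.14 (limma, adjusted p = 1.48e-05), whereas the 7 members called with the filter in that comparison were lower in the LGN. In the magnocellular division it had 6.43, 5.68, 4.48 and 6.23, against 4.31 to 5.43 in the parvocellular and 4.67 to 5.28 in the koniocellular division. CHRNA5 passed the filter in the comparison of the LGN divisions. With all animals it was not called there, nor did it differ by adjusted p alone. Female D was the lowest of the magnocellular arrays, and the difference between the divisions was called only when female D was left out. That call therefore rests on leaving out the animal that departed from the others.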
